A study of Homo sapiens with 12 samples.

Results

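The cells described here were scramble control RPMI 8226 cells given DMSO vehicle for 2 h, profiled for H3K27ac in 3 libraries of the 12 in the series. They were chosen by their titles alone, which name the scramble control, DMSO and the 2 h time. RPMI 8226 is an established multiple myeloma line, so these are malignant plasma cells in culture. The series also holds the same line with a knockout of CEBPB and libraries given 10 µM dexamethasone, in 4 groups of 3. Its question was what C/EBPβ contributes to the enhancers that the glucocorticoid acts on. The libraries below were the vehicle controls of that design, and no comparison between groups was made. Which construct the scramble control carried, and whether it was 1 clone, was not stated. Each was made from 100000 cells by CUT&RUN, in which an antibody tethers a nuclease that releases the bound chromatin fragments for sequencing. The labels did not say whether the 3 libraries came from separate cultures, so every spread given is the spread between libraries, which may be technical.

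H3K27ac is acetylation of lysine 27 of histone H3, placed by the acetyltransferases p300 and CBP, bound by bromodomain proteins and removed by histone deacetylases. It marks active promoters and enhancers. In plasma cells, IRF4, PRDM1 (the repressor BLIMP1), XBP1 and the octamer coactivator POU2AF1 maintain the secretory program, and myeloma cells depend on several of them. A peak list records where the mark passed a threshold in a bulk culture, so acetylation in fewer cells and weaker acetylation in all cells cannot be told apart.

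The promoter sequences are shown first because the results turn on which starts were acetylated and how widely. Each is the 250 bases before the RefSeq start on hg38, 5′ to 3′ on the gene's strand, in lower case. Capitals mark matches to 10 short motifs searched on both strands. These were the GC box (GGGCGG), the CCAAT box (CCAAT), the TATA box (TATAAA), the ETS motif (CCGGAAG), the NRF1 motif (GCGCATGCG), the CRE (TGACGTCA), the E-box (CACGTG), the C/EBP motif (TTGCGCAA), the octamer (ATTTGCAT) and an interferon-stimulated element (GAAANNGAA). The first 4 are plasma cell and study genes with wide peaks. EXD2 had the start peak of the highest mean enrichment, and PAX5, the B cell identity factor that plasma cells switch off, had no start peak.
IRF4, chr6:391502-391751, plus strand: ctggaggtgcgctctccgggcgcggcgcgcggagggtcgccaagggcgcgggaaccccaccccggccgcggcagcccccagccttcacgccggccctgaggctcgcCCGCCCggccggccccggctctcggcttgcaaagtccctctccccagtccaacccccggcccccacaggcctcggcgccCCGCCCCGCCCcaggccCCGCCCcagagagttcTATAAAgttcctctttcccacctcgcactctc
PRDM1, chr6:106086086-106086335, plus strand: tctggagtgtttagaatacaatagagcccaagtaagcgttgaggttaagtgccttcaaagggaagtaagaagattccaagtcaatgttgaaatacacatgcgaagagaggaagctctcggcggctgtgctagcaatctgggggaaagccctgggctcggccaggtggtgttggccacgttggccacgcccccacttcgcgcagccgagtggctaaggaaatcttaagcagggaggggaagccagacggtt
XBP1, chr22:28800570-28800819, minus strand: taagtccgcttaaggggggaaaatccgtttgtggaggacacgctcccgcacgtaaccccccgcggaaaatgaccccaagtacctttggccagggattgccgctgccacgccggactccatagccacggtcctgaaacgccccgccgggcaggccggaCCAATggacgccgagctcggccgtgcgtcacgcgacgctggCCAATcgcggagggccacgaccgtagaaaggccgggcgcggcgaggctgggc
CEBPB, chr20:50190333-50190582, plus strand: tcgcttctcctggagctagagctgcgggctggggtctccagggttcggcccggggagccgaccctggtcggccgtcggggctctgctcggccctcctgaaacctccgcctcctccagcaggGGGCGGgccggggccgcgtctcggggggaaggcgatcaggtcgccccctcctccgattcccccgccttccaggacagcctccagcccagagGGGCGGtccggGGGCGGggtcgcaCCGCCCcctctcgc
EXD2, chr14:69191248-69191497, plus strand: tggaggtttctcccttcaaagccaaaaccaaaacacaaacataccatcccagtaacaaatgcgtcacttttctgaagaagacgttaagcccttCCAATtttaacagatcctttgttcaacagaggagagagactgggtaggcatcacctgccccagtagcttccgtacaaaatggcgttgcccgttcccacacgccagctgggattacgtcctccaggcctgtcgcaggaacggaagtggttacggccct
PAX5, chr9:37034269-37034518, minus strand: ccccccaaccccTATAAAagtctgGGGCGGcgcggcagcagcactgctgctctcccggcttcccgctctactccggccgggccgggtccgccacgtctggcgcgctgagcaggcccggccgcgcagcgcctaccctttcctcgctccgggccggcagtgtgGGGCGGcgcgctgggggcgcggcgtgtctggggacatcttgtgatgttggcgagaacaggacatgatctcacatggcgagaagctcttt
All 250 bases of the IRF4, PRDM1, XBP1 and CEBPB windows lay inside peaks in each of the 3 libraries. Of the EXD2 window, 132, 106 and 129 bases were covered in libraries 1, 2 and 3. None of the PAX5 window was covered in any library. Base content did not separate these examples. The PAX5 window had 69.6% G+C and 27 CpG dinucleotides, against 76.0% and 28 for IRF4 and 53.6% and 11 for PRDM1. The IRF4 window held 4 GC boxes, of which 2 overlap by 1 base, and a TATA box. The PRDM1 window held no match to any of the 10 motifs.

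Libraries 1, 2 and 3 held 56421, 46049 and 51075 peaks on the autosomes and chromosome X, with 66.4, 53.1 and 57.1 Mb inside them. Their median peak widths were 1002, 981 and 943 bp. Their median enrichments were 3.11-, 3.60- and 3.31-fold, where enrichment is the authors' fold of a peak over background, averaged across the peak in this broad type of list. Library 1 had the most peaks and the lowest enrichment, and library 2 the fewest peaks and the highest. No read counts come with the lists and the depth behind them is unknown, so its part in this order was not tested.

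A set of 34109 ± 50.3 peaks per library (mean ± SD, n = 3) was reproduced, that is, overlapped a peak of each of the other 2 libraries by at least 1 bp. These were 60.4%, 74.1% and 66.8% of the peaks of libraries 1, 2 and 3. The number is nearly equal between libraries by construction, since each reproduced peak has a partner in the others, so the share follows the total. Peaks found in 1 library alone numbered 13700, 5621 and 9155. The reproduced peaks held 77.9% ± 5.05 of the covered length.

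Reproduced peaks were wide and enriched. Their median width was 1245, 1124 and 1123 bp, against 478, 409 and 437 bp for peaks found in 1 library alone. Their median enrichment was 3.86-, 4.09- and 4.01-fold, against 2.64-, 2.96- and 2.70-fold. The 2 kinds did not overlap in either median across libraries. Of peaks with a −log10 q of at least 2, 91.3%, 93.1% and 95.2% were reproduced, against 24.2%, 38.9% and 32.8% of weaker ones.

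The reproduced share was higher the higher the enrichment. In the lowest quintile of each library by enrichment, 35.2% ± 11.7 of peaks were reproduced, and in the highest quintile 99.4% ± 0.52. By width the same share was 28.6% ± 10.5 in the narrowest quintile, 63.9% ± 10.1 in the next and 85.4% ± 3.15 in the widest. An overlap of at least 1 bp is easier to reach for a wider peak. Its part in these shares and in the median widths above was not tested. Library 1 was the lowest in every quintile by either measure. Library 2 was the highest in each except the top quintile by enrichment, where library 3 was.

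**Figure D1:**
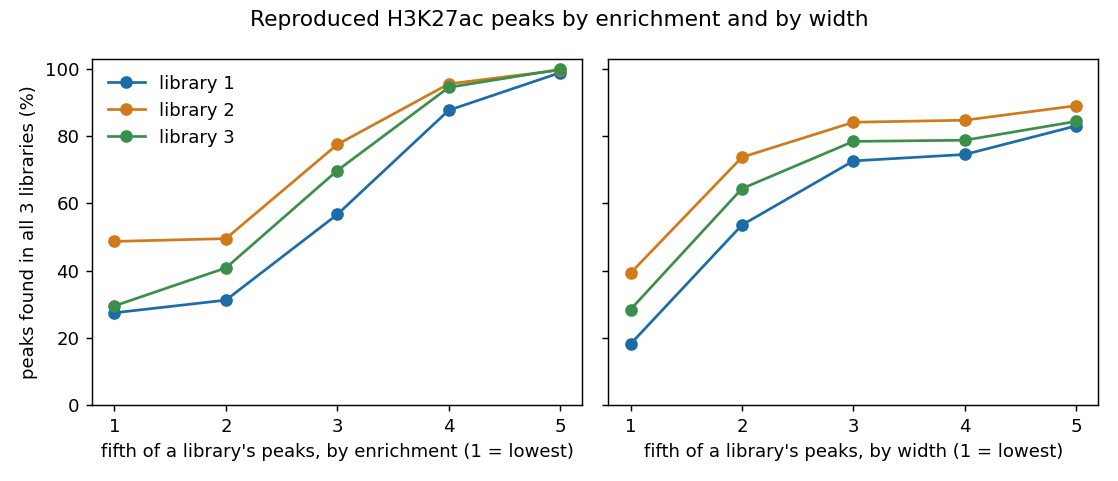
Percentage of each library's peaks that overlapped a peak of both other libraries (vertical axis), for peaks sorted into 5 equal classes by enrichment (left) or width (right); each line is 1 library. The share reached 98.8% to 99.8% in the most enriched class and 83.0% to 89.0% in the widest class.

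Base by base, the 3 lists covered 91.6 Mb together, of which 49.9 Mb lay in at least 2 libraries and 35.1 Mb, or 38.3%, in all 3. The bases in all 3 formed 34114 shared regions with a median length of 862 bp (quartiles 472 and 1358). They made up 60.2% ± 6.70 of a library's covered length. The 14352 regions longer than 1 kb held 69.4% of the shared length, and the 899 longer than 3 kb held 9.57%. Enrichment of the shared regions ranked alike in each pair of libraries, with Spearman's rho of 0.876, 0.875 and 0.888 across the 34114 regions. This is a description across regions within the same 3 libraries, with no test.

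Gene starts carried the highest median enrichment. Of the shared regions, 9744 (28.6%) lay within 1 kb of the start of a protein-coding gene, with a median length of 1221 bp and a median enrichment of 5.16-fold. Elsewhere inside genes lay 13328 regions (39.1%), with medians of 683 bp and 3.51-fold. A further 4605 lay outside genes but within 25 kb of one, at 694 bp and 3.81-fold, and 6437 lay farther away, at 666 bp and 3.91-fold. The enrichment was higher at starts than in each other class in all 3 libraries, at 4.78-, 5.36- and 5.26-fold against no more than 4.01-fold. The lowest median was that of regions inside gene bodies.

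Acetylation covered 28.6% ± 0.88 of the bases within 1 kb of a gene start, against 2.27% ± 0.31 of other gene bases and 2.00% ± 0.22 of the flanks up to 25 kb. Peaks at starts were also reproduced in the highest share in each library. Of these, 94.1%, 95.3% and 93.3% were reproduced, against 49.0%, 63.7% and 56.1% of peaks elsewhere inside genes. The number of peaks at starts was 10461, 10321 and 10548, while the number elsewhere inside genes was 27143, 20923 and 23751. The surplus of library 1 therefore lay mostly away from starts.

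Of 19835 protein-coding genes, 11103 had a peak within 1 kb of the start in all 3 libraries, a background of 56.0%. A further 490 had one in 2 libraries, 794 in 1, and 7448 (37.5%) in none. A start was thus nearly always covered in every library or in no library. Where the reference table gave no start, which was so for 4024 genes, either end of the gene counted. Among the 15811 genes of known start, 57.6% were covered in all 3. Of the 1630 starts in divergent pairs, where 2 genes are read outward from starts at most 1 kb apart, 92.6% were covered, against 53.6% of the other 14181. Such pairs have 2 starts that the same peak can reach.

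Coverage leaned downstream of the start. In a walk in steps of 500 bp, 55.6% ± 0.24 of known starts were covered at the start itself, 45.3% ± 1.22 at 500 bp downstream and 31.3% ± 1.65 at 500 bp upstream. At 1 kb the values were 18.5% ± 1.59 downstream and 10.9% ± 0.92 upstream. All 3 libraries showed this lean at both distances. Coverage then fell to 2.23% ± 0.15 at 4 kb upstream and 2.31% ± 0.23 at 4 kb downstream, and rose again farther out, to 4.15% ± 0.22 and 4.56% ± 0.36 at 10 kb.

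The low values at 4 kb came from the acetylated starts. Around starts with a peak in all 3 libraries, coverage was 1.78% ± 0.15 at 4 kb upstream and 5.49% ± 0.35 at 10 kb upstream. Around starts with no peak in any library it was 2.80% ± 0.15 and 1.93% ± 0.11 at the same distances. Coverage was thus lower at 4 kb upstream of an acetylated start than of a start without a peak, and higher at 10 kb, by more than the spread between libraries. No 2 peaks of a library lay closer than 1601 bp in any of the 3 lists, so nearer peaks are not separated in these data. Whether the peak calling shapes the low values beyond that distance was not tested.

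**Figure D2:**
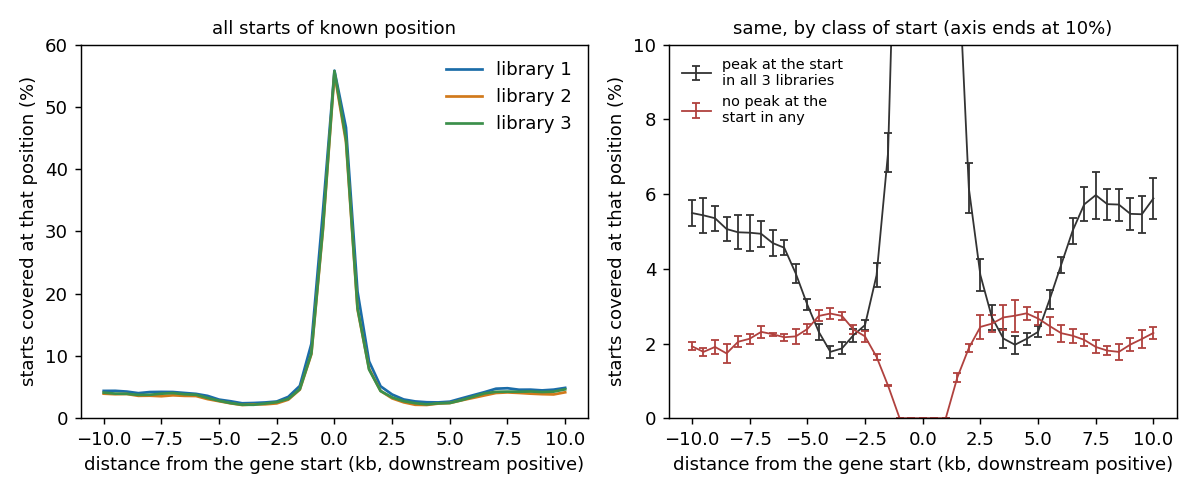
Percentage of gene starts of known position covered by a peak, by distance from the start in kb; left, all 15811 starts with 1 line per library, right, starts with a peak in all 3 libraries and starts with none (mean ± SD, n = 3). Coverage was highest at the start and higher downstream than upstream; around covered starts it was lower at 4 kb than at 10 kb upstream, and within 1 kb the uncovered starts are at 0 by definition.

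Covered promoters held more CpG dinucleotides than uncovered ones. Sequences were matched for 15809 genes of known start with no undetermined base. The 9114 promoters covered in all 3 libraries had a median of 22 CpG dinucleotides in the 250 bases before the start (quartiles 15 and 28) and 65.2% G+C. The 5780 covered in none had 6 (2 and 17) and 54.8%. Of promoters with at most 2 CpG, 9.37% were covered in all 3 libraries, and of those with 11 to 15, 65.2%. The share levelled off at 78.4% for 21 to 25 CpG and 78.1% above 25. Of the promoters with more than 25, 18.0% were covered in no library, and the PAX5 window printed above is among these.

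A GC box occurred in 69.7% of covered promoters, in 34.7% of uncovered ones and in 56.0% of all. The ETS motif occurred in 18.2%, 2.73% and 11.8%, and the NRF1 motif in 3.65%, 0.61% and 2.37%. The TATA box went the other way, at 4.88%, 16.1% and 9.25%. The CCAAT box was at 36.4%, 32.6% and 34.4%. The C/EBP motif, the palindrome bound by the protein knocked out elsewhere in the series, was rare at 0.19%, 0.12% and 0.16%. The E-box occurred in 9.51%, 5.54% and 7.83%, the CRE in 3.17%, 1.11% and 2.32%, the octamer in 1.38%, 2.06% and 1.66%, and the interferon-stimulated element in 5.29%, 7.66% and 6.09%. Motif shares were not matched for base content, and a match is a description of the letters, not of binding.

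The 4 plasma cell markers were each acetylated at the start in all 3 libraries, as were 56.0% of all protein-coding genes. The IRF4 peak was 2747, 2751 and 2704 bp wide in libraries 1, 2 and 3, at 2.90-, 3.37- and 3.28-fold. The PRDM1 peak was 2831, 2785 and 2702 bp wide, at 3.15-, 3.78- and 4.24-fold. The XBP1 peak was 4468, 3069 and 3392 bp wide, at 2.71-, 3.83- and 3.23-fold. POU2AF1, for which the reference table gave no start and either gene end counted, had a peak of 3693, 1745 and 1750 bp, at 3.47-, 4.49- and 4.31-fold. The widths were close to each other for IRF4 and PRDM1 and spread for XBP1 and POU2AF1, where library 1 was the widest.

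These marker peaks were wide but not strongly enriched. The median over the 11103 covered starts was 1403 bp (quartiles 1099 and 1827) and 5.17-fold (quartiles 4.07 and 6.25). By mean width XBP1 ranked 272, PRDM1 746, IRF4 795 and POU2AF1 1201 of these starts. By enrichment they ranked 9984, 9100, 10107 and 8278. The 4 defining genes of the plasma cell label thus carried the mark in every library, in peaks wider than the median and less enriched than the median.

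The arrangement around the markers differed from gene to gene. The shared region at IRF4, chr6:391500-394183, covered the start and the bases downstream of it, and 3 further shared regions of 238 to 659 bp lay within 25 kb of the gene. At PRDM1 the shared region chr6:106083830-106086492 covered the start and the bases upstream of it. A second wide region of 2909 bp, chr6:105992588-105995496, lay 90.8 kb away at the far 5′ end of the annotated gene. PRDM1 had 6 shared regions in its window. At XBP1 the region over the start, chr22:28799861-28802905, was 3045 bp long at 3.25-fold ± 0.56. The most enriched of its 5 regions lay 27.1 kb away, chr22:28772548-28773496, at 7.84-, 8.28- and 8.33-fold. POU2AF1 had 4 shared regions, the longest of 2678 bp, chr11:111361835-111364512, inside the gene.

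The study's own 2 genes were also acetylated. CEBPB, the gene of C/EBPβ, had a start peak of 3105, 3181 and 3248 bp at 3.42-, 3.85- and 3.65-fold, and a second shared region 23.5 kb away at 5.58-fold ± 0.40. NR3C1, the gene of the glucocorticoid receptor that binds dexamethasone, had a start peak of 3008, 3108 and 3075 bp at 2.86-, 3.11- and 3.06-fold. A second wide region of 2554 bp lay 48.5 kb from that start, still inside the gene. Covered length in the CEBPB window was 5.14, 5.56 and 6.14 kb. In the NR3C1 window it was 11.7, 6.41 and 7.60 kb, higher in library 1 than in the others.

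Width and enrichment of start peaks ran against each other. Across the 11103 covered starts, Spearman's rho between mean width and mean enrichment was −0.49, and −0.48, −0.49 and −0.46 in libraries 1, 2 and 3. The median enrichment was 6.55-fold in the second decile by width (864 to 1030 bp) and 3.28-fold in the widest decile (2455 to 8139 bp). The narrowest decile, below 864 bp, broke the trend at 4.72-fold with wide quartiles of 3.57 and 6.93. Over all peaks, at starts and elsewhere, the relation was weak and positive, with rho of 0.21, 0.10 and 0.20 in libraries 1, 2 and 3. The deposited value is a mean over the peak, and no summit value was analysed here. The genes are not independent replicates, and no test was made.

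**Figure D3:**
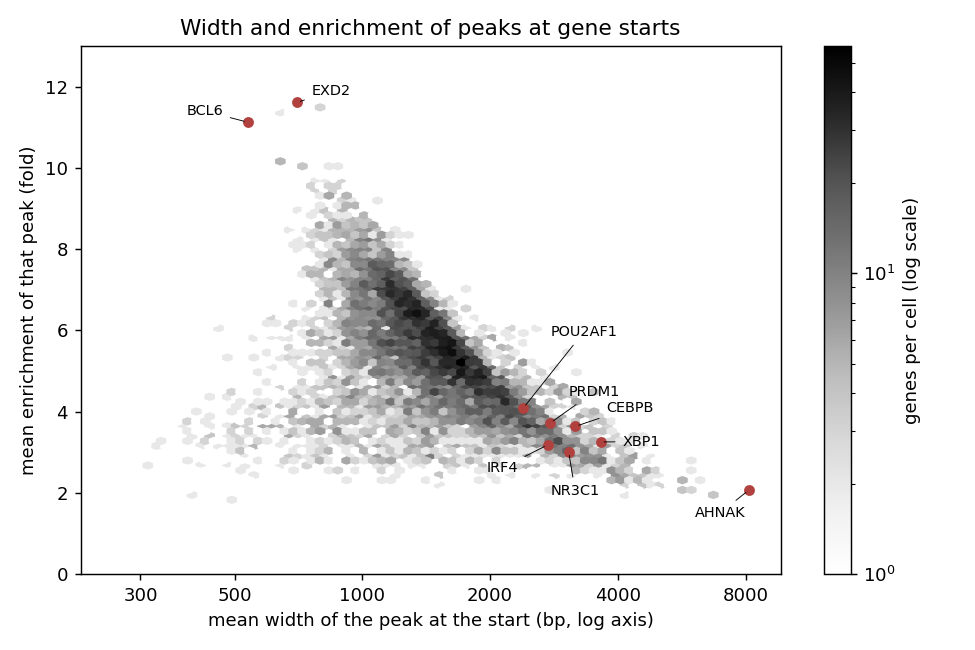
Mean enrichment (fold) against mean width (bp, log axis) of the peak at each of 11103 gene starts covered in all 3 libraries; grey cells show the number of genes and red points are named genes. The upper edge of the cloud falls with width, EXD2 and BCL6 lie at the top left, AHNAK at the bottom right, and the plasma cell and study genes lie on the wide side at 3.01- to 4.09-fold.

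The most enriched start peaks were narrow. EXD2, which encodes an exonuclease, had the highest mean, with 10.4-, 11.8- and 12.7-fold at a width of 732, 705 and 667 bp. The order differed between libraries. ALG10B was above EXD2 in library 1, at 11.0-fold, and NDUFS4 in library 2, at 13.7-fold. PRH1, PRH1-TAS2R14 and SMIM10L1 share the next peak, at 9.29-, 12.9- and 12.1-fold. ALG10B, a glucosyltransferase gene of N-glycan assembly, had 11.0-, 11.6- and 11.7-fold. ZNF451, NDUFS4, C11orf65 and LANCL1 completed the first 10 with BCL6, at means from 11.05-fold at LANCL1 to 11.3-fold at ZNF451. BCL6, the repressor of the germinal centre stage that PRDM1 represses, had 10.8-, 10.9- and 11.7-fold in a peak of 560, 515 and 535 bp. Total covered length around these genes was low, from 0.615 kb at ALG10B to 2.97 kb at ZNF451, against a median of 3.23 kb over all genes.

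The widest start peaks belonged to other genes. AHNAK, a giant scaffold protein gene, had 8146, 8211 and 8061 bp at 1.95-, 2.18- and 2.08-fold. SHC3 had 7411, 7352 and 7319 bp, and FMNL1, a formin of blood cells, 7219, 7042 and 7313 bp. NKD2, ANKRD44 and CLIC1 had means of 6676, 6536 and 6205 bp. GRIN1, LRRC26 and TMEM210 share 1 peak of 6653 bp ± 316. GRIN1, a neuronal receptor gene, entered through its 3′ end, since no start was given for it. Library values lay within 10% of their mean for each of these genes.

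The longest shared regions were partly at starts and partly inside genes. The longest, chr19:2082100-2090579, spans 8480 bp inside MOB3A at 2.19-, 2.37- and 2.38-fold. The next, chr5:14244684-14253075, spans 8392 bp inside TRIO, a guanine nucleotide exchange factor gene, at 2.09-fold ± 0.11. Those at AHNAK (8061 bp), the neighbours SNN and TXNDC11 (7548 bp), SHC3 (7303 bp) and FMNL1 (7042 bp) lay at or within 1 kb of a gene start. One of 7486 bp lay inside IQSEC1, and one of 6979 bp lay 5837 bp from MAL. Another, chr22:22949470-22956446, spans 6977 bp and lay 53359 bp from IGLL5, its nearest protein-coding gene, in the immunoglobulin lambda region. Among regions longer than 3 kb the median enrichment was 2.89-fold, against 3.98-fold over all shared regions.

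Very long genes, none of them on the plasma cell lists below, carried the most covered length in total. DSCAM, a neuronal adhesion gene, had 100.8, 86.3 and 91.4 kb covered in the gene and 25 kb on each side. TRIO had 89.4, 74.2 and 75.1 kb, PIEZO2, a mechanosensitive channel gene, 85.7, 69.8 and 67.2 kb, and PTPRM, a receptor phosphatase gene, 80.6, 58.3 and 65.8 kb. Library 1 was the highest for each of these, and DSCAM was above TRIO in all 3 libraries. That order depends on weak peaks. With only peaks of −log10 q of at least 2, TRIO was the highest of these 4 with a mean of 66.5 kb, and PIEZO2 had 53.1, DSCAM 52.9 and PTPRM 52.5. RANBP2 followed with 65.7 kb ± 5.10, but its annotated span holds 6 other genes, among them EDAR and SH3RF3.

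Next came CALN1 (65.1 kb), AUTS2 (63.9), KAZN (62.9), RBFOX1 (62.0), RYR2 (61.9), MACROD2 (58.8), MAST4 (58.7), ATXN1 (54.6), BNC2 (53.9), ADAMTS17 (50.6), HIVEP3 (49.6), SLCO3A1 (49.4), CTNNA3 (49.3), MYO5A (47.7) and GRIN2A (46.5), as means. Adjacent means in this order differed by less than the larger of their SDs, which ran from 2.48 kb at HIVEP3 to 21.4 kb at RBFOX1. With only peaks of −log10 q of at least 2, the mean of 9 of the 20 besides DSCAM was lower by over 1.5 times, at RANBP2 (34.5 kb), CALN1 (41.3), AUTS2 (34.7), KAZN (27.5), RBFOX1 (23.9), MACROD2 (30.7), ADAMTS17 (20.9), MYO5A (29.8) and GRIN2A (24.1). The gene median was 3.23 kb (quartiles 1.14 and 6.30), 197 genes exceeded 20 kb, and 2625 genes (13.2%) had no peak in their window in any library.

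The share of the window that was covered differed widely among these genes. In TRIO 19.1% of the window was covered, in MYO5A 17.6%, in PIEZO2 14.02% and in SLCO3A1 13.4%, against a median of 3.46% over all genes. In RBFOX1, CTNNA3 and MACROD2, with windows of 2524, 1901 and 2108 kb, the share was 2.46%, 2.59% and 2.79%, near the 2.27% of gene bodies in general. RBFOX1, CTNNA3, MACROD2 and KAZN also had no covered base within 25 kb of the start in any library. CALN1 and ADAMTS17 likewise had no peak at the start. A single start per gene was used, so peaks at another start count only towards covered length. Start peaks of 3543 to 4367 bp were found at TRIO, PIEZO2, BNC2, ATXN1 and SLCO3A1, and one of 708 bp at HIVEP3.

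**Figure D4:**
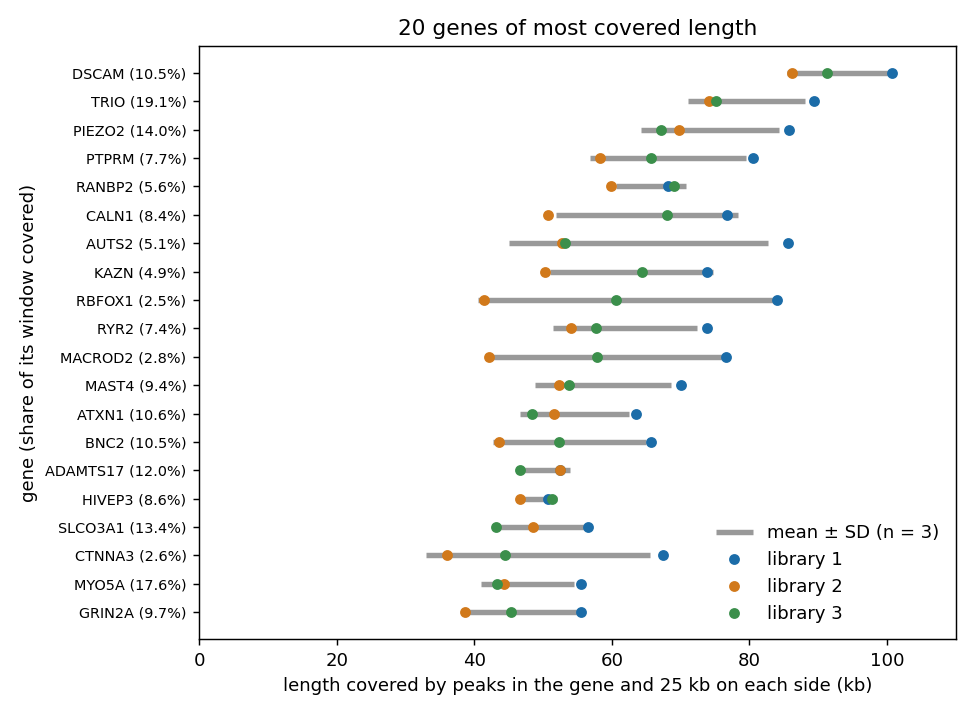
Length covered by peaks (kb) in each of the 20 genes with the highest mean, over the gene and 25 kb on each side; points are libraries, grey bars are mean ± SD (n = 3), and the share of the window covered is given after the gene. Library 1 lies at the right for most genes, and TRIO and MYO5A have the highest shares while RBFOX1, CTNNA3 and MACROD2 have the lowest.

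None of these 20 was among the 20 genes of most covered length when 25 kb around the start was used in place of the gene. Among genes of known start, keeping 1 gene where windows overlapped by over 50%, MAL led that count with 18.0 kb of mean covered length, followed by VOPP1 (17.2), AMH (16.6), SECTM1 (16.1), PTPN6 (15.7), CORO1B (14.8), PPP1R14B (14.7), LRRC26 (14.3), GAS6 (14.0) and IZUMO4 (13.8), against a median of 2.06 kb. PTPN6 encodes the phosphatase SHP-1 of blood cells and MAL a membrane raft protein. Over the gene and its flanks, libraries 1, 2 and 3 held 20.4, 21.8 and 24.7 kb at MAL and 16.4, 16.03 and 16.7 kb at PTPN6. Several of these genes lie in gene-dense stretches, so the window also holds peaks of their neighbours.

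Plasma cell transcription factors were mostly acetylated at the start, and widely. Of the 15 listed genes 13 had a start peak in all 3 libraries, against the 56.0% of all genes. All 15 lay above the gene median of covered length, with a list median of 10.5 kb. Covered length is not divided by the length of the window. ZBTB20 had 0.67% of an 883 kb window covered, against a median of 3.46% over all genes, and was the only member below that median share. ETV6 had the most, with 24.3, 22.3 and 28.9 kb, followed by RUNX1 (25.03 kb), MEF2C (15.6) and IKZF3 (14.9), and ZBTB20 (5.93) and IRF8 (5.24) had the least. IKZF1 and IKZF3 encode Ikaros and Aiolos, the factors degraded by lenalidomide. FLI1 and POU2F2 had no peak at the start used here, yet 14.2 and 10.2 kb were covered around them. With only peaks of −log10 q of at least 2 the count was 12, without ZBTB20. Of the 13 covered starts, 11 had a mean width over 1827 bp, the upper quartile of all covered starts. The median width of the 13 was 2734 bp. Among the 11, some fell below 1827 bp in single libraries. These were IKZF1 (8380, 1035 and 5291 bp in libraries 1, 2 and 3), TCF3 (2119, 1797 and 1905 bp) and POU2AF1 (3693, 1745 and 1750 bp).

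Start peaks of myeloma oncogenes and survival genes were also mostly wide. Of 13 genes 11 were covered at the start in all 3 libraries, beside 56.0% of all genes. The widths of 10 of the 11 lay above that upper quartile. The 11 had a median width of 3586 bp and a median enrichment of 3.20-fold. BCL2L1, the gene of the survival protein BCL-XL, had 19.5, 21.6 and 23.5 kb covered. BCL2 had 16.5 kb ± 0.71, BCL2L11 (the death-inducing BIM) 13.4 ± 1.55 and the integrin gene ITGB7 12.4 ± 0.56. CCND2 had the widest start peak of the list, 5267 bp, and MAF and MYC had 3586 and 3681 bp. FGFR3, which is activated by translocation in some other myelomas, had no start peak in any library, with 3.69, 2.19 and 2.56 kb covered.

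Surface antigens were covered in a share near that of all genes. Of 17 genes 11 (64.7%, beside 56.0%) had a covered start in all 3 libraries, among them SDC1 (CD138), TNFRSF17 (BCMA), CD38, CXCR4 and IL6ST. NCAM1 (CD56) had the most covered length, 30.2, 30.3 and 28.5 kb, then TNFRSF13B (19.1 kb), IL6R (15.7) and ICAM1 (13.8). No start peak was found at SLAMF7, FCRL5, GPRC5D, CD27 or CD44 in any library, and LY9 had one in library 2 only. CD44 and GPRC5D had no covered base in their windows in any of the 3 libraries. At SLAMF7, the target of elotuzumab, 4.49, 2.74 and 1.92 kb were covered in the window.

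Genes of the secretory pathway and unfolded protein response were covered at 33 of 34 starts, beside 56.0% of all genes. The exception, the disulfide isomerase gene PDIA6, had a start peak in libraries 1 and 3. ERN1, the gene of the IRE1 sensor that activates XBP1, had the most covered length, 35.2, 29.0 and 28.8 kb. TXNDC5 (14.1 kb), DERL3 (12.8) and ATF4 (10.3) followed, and SPCS3 (1.86) and LMAN1 (1.61) had the least. MZB1, a chaperone of antibody assembly, had a start peak of 6045 bp, rank 16 of all covered starts, at 2.07-fold. LMAN1, a cargo receptor for secreted proteins, had the reverse, 1023 bp at 8.13-fold. The list as a whole had a median width of 1855 bp, and 17 of its 33 covered starts lay above the upper quartile.

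Proteasome subunits, the drug target of bortezomib, had covered starts at 31 of 31 genes, beside 56.0% of all genes, but of ordinary width. Their median width was 1326 bp, below the 1403 bp of all covered starts, with a median enrichment of 5.599-fold, and 5 of 31 lay above the upper quartile of width. Covered length was the highest at PSMA1 (10.5 kb), PSMD4 (8.11), PSMD11 (7.31) and PSMA7 (7.204) and the lowest at PSMD14 (1.89) and PSMB4 (1.73). Housekeeping genes had 18 of 18 starts covered and were wider, at a median of 2153 bp with 13 above the upper quartile. SDHA had 9.18 kb covered and YWHAZ 8.61, and TBP (3.60) and HPRT1 (1.36) had the least.

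In the NF-kB list 17 of 19 starts were covered, beside 56.0% of all genes. MAP3K14, the kinase NIK of the noncanonical pathway, had the most covered length with 19.3, 15.4 and 15.97 kb, then TRAF2 (14.5), RELB (10.3) and LTA (9.31). CD40 (2.30) and REL (1.47) had the least. TNF had no start peak and LTA one in library 3 only, while LTB beside them was covered in all 3 libraries. These 3 cytokine genes are neighbours, and the windows of TNF and LTB held the same 6.52 kb. All 18 genes of a list of H3K27 writers, readers, erasers and associated cofactors and remodellers were covered. ARID1A, a chromatin remodeller subunit gene, had 14.5 kb covered and CREBBP, the gene of CBP, 12.4, and SUZ12 (3.49) and HDAC2 (1.69) had the least.

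Mature B cell markers were covered in part, by a share below the 56.0% of all genes. Of 15 genes 6 were covered in all 3 libraries, namely BLK, CIITA, BACH2, FCER2, BCL6 and CR2. Those with no start peak in any library included PAX5, MS4A1 (CD20), CD22, CD72, SPIB, EBF1 and VPREB3. Covered length was 20.8, 17.4 and 24.6 kb at BLK, then 10.9 kb at CIITA and 7.06 at CD72, and was 0.211 at EBF1. The MS4A1 window held 0.382, 0.352 and 1.08 kb.

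Markers of cells that a myeloma culture should not hold were covered in shares below the 56.0% of all genes. T cell markers were covered at 6 of 15 starts, namely CD7, CD8B, CD8A, LCK, LAT and CD3E, and 5 had none, CD3D, CD3G, CD2, GATA3 and BCL11B. CD7 had 12.0, 13.3 and 11.6 kb and CD8B 12.6, 12.2 and 12.0 kb, close to each other, while CD5 had 3.54, 4.94 and 13.8 kb, most of it in library 3. Myeloid markers were covered at 5 of 15 starts (33.3%), SPI1, FCGR1A, CD14, S100A9 and CD33. CSF1R (9.96 kb), SPI1 (7.62), ELANE (6.32) and CSF3R (5.09) had the most covered length, and MPO (1.22) and LYZ (1.14) the least. With only peaks of −log10 q of at least 2, the T cell count was 4 and the myeloid count 3, without LAT, CD3E, CD14 and S100A9.

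Stromal, endothelial and epithelial markers were covered at 4 of 14 starts (28.6%), KRT8, KRT18, COL1A1 and EPCAM. Only 3 of the 14 had a known start, of which 1 was covered, and for the others either gene end counted. KRT8 had 15.4, 13.4 and 19.1 kb, followed by CDH1 (8.98), COL1A1 (7.56) and KRT18 (5.88). COL1A2, COL3A1, DCN and LUM were at 0 kb in all 3 libraries. Liver and neuron markers were covered at 2 of 14 (14.3%), GRIN1 (through its 3′ end, as above) and APOA1. No start was given for APOA1, so either gene end counted, and it was lost with only peaks of −log10 q of at least 2. None of the 8 members of known start was covered in all 3 libraries. RBFOX3 (11.8 kb), SYT1 (6.37) and SLC17A7 (5.89) came after GRIN1 (21.5) in covered length, and ALB, TTR, SERPINA1 and NEUROD1 were at 0. The summed covered length of each list was 66.5, 62.4 and 78.4 kb for T cells, 63.8, 56.9 and 63.5 kb for myeloid cells, 63.3, 52.6 and 68.6 kb for stroma and epithelium and 66.1, 52.7 and 66.4 kb for liver and neurons.

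Gene families that are silent in most tissues had few covered starts. Olfactory receptors were covered at 6 of 389 starts (1.54%), beside 56.0% of all genes. Of the 389, 380 were covered in no library, and the median covered length was 0 kb. Keratin-associated proteins, the matrix of hair, were covered at 13 of 94 (13.8%), with 75 covered in none. Both medians of covered length were 0, against 3.23 kb over all genes.

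**Figure D5:**
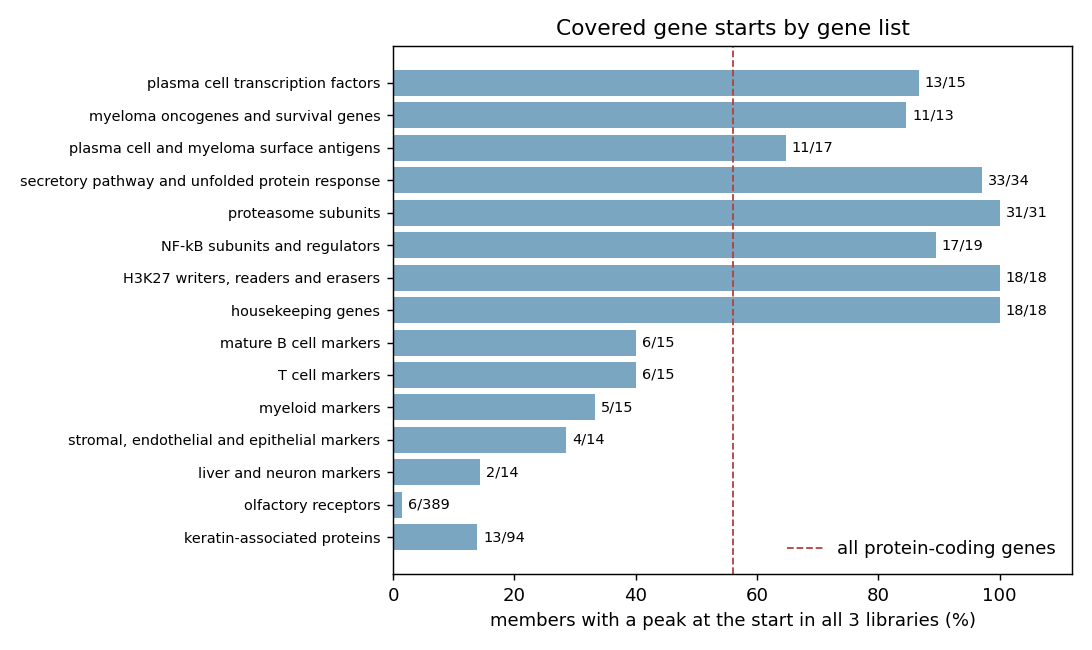
Percentage of the members of each gene list with a peak within 1 kb of the start in all 3 libraries (bars, starting at 0), with the number covered of the number of members; the dashed line is the 56.0% of all protein-coding genes. The 8 upper lists lie above the line and the 7 lower lists below it.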

How the data were processed

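H3K27ac was profiled by CUT&RUN in the 3 scramble DMSO libraries, and 1 list of broad peaks per library was used. Per the submitters' processing notes, Bowtie2 2.4.2 and MACS3 3.0 were used on the hg38 build. A control library and the handling of duplicates were not given in the sources used here. The deposited start and end are 0-based positions. The deposited score was 10 times −log10 q, within 1, in at least 99.98% of peaks. The deposited ratio is the fold enrichment over background, a mean over the peak in this format, and the deposited −log10 p and −log10 q are likewise per peak. The lists hold no counts, so depth and counting error are unknown.

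The autosomes and chromosome X were kept. Genes came from RefSeq's table (GRCh38.p14), leaving out 135 protein-coding genes listed at positions of sequences other than the chromosomes. RefSeq's promoter table gave starts, strands and sequences for 15811 genes, and for the other 4024 either end of the gene counted. A start was covered when a peak lay within 1 kb. Covered length was summed over the gene and 25 kb on each side, so windows of neighbours overlap.

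Always named were 4 marker genes, CEBPB and NR3C1. Further named genes were the 20 of most covered length (1 of any windows overlapping by over 50%), the 10 longest shared regions, the 10 most enriched starts, and per list 4 members of most and 2 of least covered length with the covered or uncovered ones where at most 5. The 10 widest starts, the 10 genes of most covered length around the start and single list members named for their role were added after values were seen. Values of some genes that this rule names are not reported here. The members and lists were chosen with earlier results of these data known. No test was made, since 1 group is described. Alternatives were only peaks with −log10 q of at least 2, lists trimmed to equal covered length, 50% overlap or 200 bp runs, other windows and leaving out each library. The interval code was tested on simulated data. Python 3.11.15, NumPy 2.4.6, pandas 2.3.3 and Matplotlib 3.10.9 were used.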

Additional observations from a re-analysis of the deposited data

Results flagged for a closer look

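Outside the chromosomes described in the report, on other sequences of the assembly, the 3 libraries held 296, 229 and 251 peaks, a mean of 258.7. They were set apart because no comparison uses them. They were not assigned to genes.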

How the results depend on the processing

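The number of shared regions stayed within 1.5 times its value of 34114 under every alternative, from 24323 to 39380, as did the number of covered starts, from 9115 to 12505 against 11103. With only peaks of −log10 q of at least 2, the share of covered length in all 3 libraries was 76.1%, the median width of reproduced peaks 1253 bp and their median enrichment 4.60-fold. Equal covered length gave an enrichment of 4.12-fold and 50% overlap gave 4.22-fold. Leaving out each library in turn gave a share of 67.1% to 70.0%, a width of 1093 to 1140 bp and an enrichment of 3.69- to 3.91-fold, where a region then needs only the 2 libraries that remain. Of the 20 genes of most covered length, 0 remained with 25 kb around the start and 14 with peaks of −log10 q of at least 2, which brought in ARHGAP26, DOK6, GRIA4, SIPA1L2, TMTC1 and TRPS1. Under that same setting 25 of the 26 genes followed had less covered length, but it only removes peaks, so covered length could not rise. Under the other settings run, 18 to 20 remained. Settings for the counts by list, and the count of 9115 among known starts, were chosen after seeing the data; with only peaks of −log10 q of at least 2, covered starts were 3 against 5 for myeloid markers and 1 against 2 for liver and neuron markers. No paired analysis was possible because 1 group is described. Without read counts, a gene with no peak is below the authors' threshold, not without the mark, and enrichment is limited by unknown depth and by averaging over wide peaks.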

Other observations

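Genes without and with acetylated starts came in runs along the chromosomes. The longest run of neighbouring protein-coding genes without a start peak in any library was 66 genes over 9.26 Mb of chromosome 11, from PTPRJ to APLNR, and 57 of them were olfactory receptors. Another of 41 genes on the same chromosome held 31 olfactory receptors and the beta-globin genes HBB, HBD, HBG1, HBG2 and HBE1. Further runs were the keratin-associated genes of chromosome 21 (37 genes over 2.02 Mb), the protocadherin clusters of chromosome 5 (32 genes) and the PRAMEF cluster of chromosome 1 (31 genes). The longest runs with every start covered in all 3 libraries held 21 genes each, one from OTX1 to PPP3R1 over 5.20 Mb of chromosome 2 and one from TMEM276 to C8orf33 on chromosome 8, and another of 18 on chromosome 16 spanned 0.418 Mb around CTCF.

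Chromosomes differed in their share of covered starts, from 38.8% on X and 49.5% on 4 to 65.1% on 16. Shared length per gene ran from 1.03 kb on X and 1.25 kb on 19 to 2.51 kb on 21 and 2.62 kb on 18. Chromosomes 21 and 18 have few genes, 238 and 268, and dividing by fewer genes raises this measure by construction. Chromosome 13, with 336 genes, had 1.72 kb. Copy number was not measured here, and its part in these values was not tested.

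The spacing of peaks was not even. In each library the smallest gap between neighbouring peaks was 1601 bp. Gaps of 5 to 6 kb were the most frequent of the 1 kb classes below 12 kb, at 3138 ± 422 per library (n = 3). There were 1783 ± 184 of 3 to 4 kb and 1551 ± 241 of 11 to 12 kb. The 871 ± 45.2 gaps of 1 to 2 kb were all of at least 1601 bp, so that class is cut short and not comparable. Beside the 5946 shared regions of at most 2 kb that lay over 25 kb from any gene, coverage was lowest at 1.5 kb from the edge, at 2.18% ± 0.83, then 3.04% ± 0.26 at 3.5 kb, 5.46% ± 0.57 at 6 kb and 4.33% ± 0.58 at 12 kb. Up to 1.5 kb from the edge, only the same peak running on could cover a base, since no gap was below 1601 bp. The cause of the spacing beyond that distance was not tested.

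The most enriched shared region of all lay on chromosome X inside MAOA, chrX:43654573-43655017, 445 bp long, at 14.0-, 16.5- and 15.6-fold. The second, chr1:10064-10467, at 12.4-, 13.5- and 14.2-fold, lay at the very end of the chromosome. Of the 10 most enriched regions, none was within 1 kb of a gene start used here. Where the start of a gene was known, a single start was used, so a region at another start is not counted as such. They were 404 to 779 bp long, shorter than the median of 862 bp. No peak was removed here for lying in repeats or in sequence that is hard to map. The part of mapping in these values was not tested.

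Wide start peaks were no richer in CpG by median than covered starts in general. The promoters of the widest decile had a median of 22 CpG dinucleotides, the same as all covered promoters. The ETS motif occurred in 10.3% of them against 18.2%, and the octamer (ATTTGCAT), bound by the partners of POU2AF1, in 3.73% against 1.38%. These shares were noticed among 10 motifs, without a test.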
